A study of Komagataella pastoris with 3 samples.

Results

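A group of 125 genes of the methylotrophic yeast Pichia pastoris GS115 fell at least 2-fold in relative messenger RNA level from 24 to 36 h of culture and fell at least 2-fold again from 36 to 48 h. They were 125 of 5040 genes in the deposited table, 2.48%. The genes were chosen by their FPKM values (a read count divided by gene length and by library size), as those whose log2(FPKM + 1) dropped by at least 1 in each interval. A further 26 genes met the same limits but were left out, because they started at 1000 FPKM or more and lost at least 2 log2 units before 36 h. With them, 151 genes or 3.00% of the table were at least 2-fold lower in both intervals. All 3 libraries enter this choice, so every level and change of the 125 genes below is a description and not a test.

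GS115 is a histidine auxotroph widely used as a host for recombinant protein, now usually classified as Komagataella phaffii. The labels give its genotype as Wild-type. Shaken cultures in YPD, a rich glucose medium, were sampled after 24 h, 36 h and 48 h, and messenger RNA was sequenced with 1 library per time point. The 3 libraries share strain, medium and temperature and differ in the age of the culture. No replicate was sequenced, so no value has an error between replicates and each difference is one between 2 libraries.

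As a yeast culture in glucose medium ages, cells use up the sugar, turn to other carbon sources, slow their growth and finally stop dividing. In budding yeasts this transition is known for a broad shift of transcription, in which growth-related genes such as those for ribosome production are turned down and genes for respiration and stress tolerance are turned up. The level of a messenger RNA reflects both its synthesis and its decay. FPKM is a relative measure, so fewer cells carrying a transcript, less of it per cell and more of other transcripts cannot be told apart.

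The table identifies genes by locus tags and pairs none of them with a gene name or function. The reference list at hand, of 5305 genes, is that of a related species and shares 0 tags with these data. The roles of the 125 genes are therefore not given here, and the group is described by level, by timing and by the place of its tags. Only the member with the highest 24 h level and the member with the largest fall among those never listed at 0 are named. Over all 5040 genes the median level at the 3 times was 54.3, 48.2 and 51.4 FPKM, and total FPKM went from 871921 to 785727 and 760684. Depth is unknown from normalised values. Where 3 levels of a gene are given in a row below, they are in the order 24, 36 and 48 h.

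The 125 genes began above the typical gene and ended far below it. Their median level dropped from 102 FPKM to 39.1 and then 10.3 FPKM. The interquartile range of their levels ran from 44.3 to 287 FPKM at first, from 15.4 to 92.8 FPKM at 36 h and from 3.97 to 29.5 FPKM in the last library. At 24 h their levels spanned 8.27 to 6283 FPKM, so the group held genes of very different abundance. By 36 h a median of 37.1% of the 24 h level was left in a gene of the group, and by 48 h a median of 10.3%. The member that kept most had 23.9% of its 24 h level at 48 h.

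**Figure D1:**
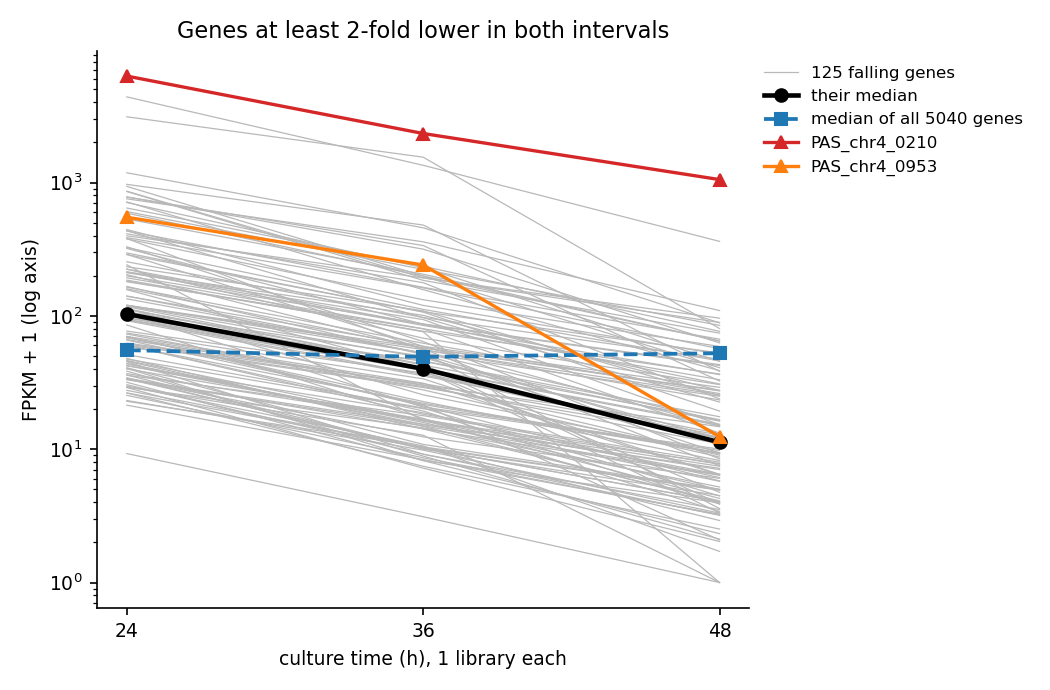
Level of each of the 125 genes (grey lines) at 24, 36 and 48 h as FPKM + 1 on a log axis, with their median (black), the median of all 5040 genes (blue, dashed) and the 2 named tags (red and orange). The median of the group starts at 102 FPKM, above the 54.3 FPKM of all genes, and ends at 10.3 FPKM, below their 51.4 FPKM.

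Ranks within each library do not depend on library scaling, although the choice of the 125 genes does. A drop in rank follows in part from that choice. The median member moved from percentile 71.7 of all genes to percentile 41.8 and finally to 7.96. Above percentile 90 stood 32 of the 125 genes in the first library, 8 in the second and 2 in the last. At or below percentile 10 stood 1, 21 and 71 of them at the successive times. Above the median gene of their library were 88 members, then 55 and then 17. Under 10 FPKM, a limit that does depend on scaling, were 1, 19 and 61 members, against 189, 338 and 383 of all genes.

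**Figure D2:**
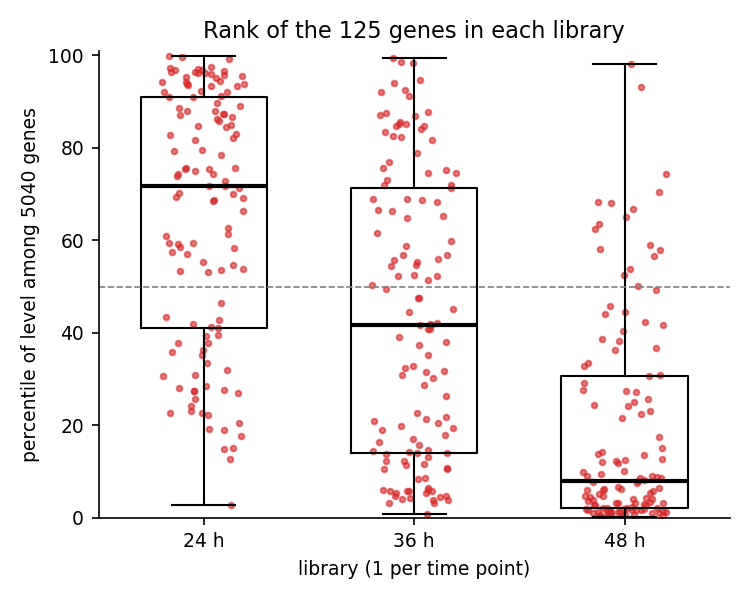
Percentile of the level of each of the 125 genes among all 5040 genes, by library, with points for genes, boxes for the quartiles and whiskers to the lowest and highest member. The median passes from percentile 71.7 to 41.8 and 7.96, and at 48 h the points crowd near the bottom of the library, where 71 members lie at or below percentile 10.

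Among themselves the members largely kept their order of abundance. Across the 125 genes Spearman's rho of the levels was 0.96 between 24 and 36 h, 0.89 between 36 and 48 h and 0.85 between 24 and 48 h. Over all 5040 genes it was 0.78, 0.82 and 0.58, where genes are not independent replicates and where genes that rose and genes that fell both count. Selecting genes that all fell narrows their changes and by itself raises the correlation. Of the 10 members highest at 24 h, 7 were among the 10 highest members at 36 h and 6 among those at 48 h.

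The messenger RNA signal held by the group shrank to a small part of its start. The 125 genes summed to 38602 FPKM, then 13899 and then 3915 FPKM, which was 4.43%, 1.77% and 0.515% of total FPKM. Counted as FPKM, 24703 were lost in the first interval and 9984 in the second, so 71.2% of the loss came before 36 h. Since a gene that fell at least 2-fold had less FPKM left than it had lost, the rule itself ensures a larger first loss. The 4 most abundant members held 38.8%, 40.9% and 40.3% of the group's sum at the successive times. The other 121 members held 2.71%, 1.05% and 0.307% of total FPKM.

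The 4 members that started at 1000 FPKM or more fell in different ways. PAS_chr4_0210, on chromosome 4 by its tag, was the most abundant member at every time, at 6283, 2329.8 and 1051 FPKM. Its changes were -1.43 and -1.15 log2 units, and it was the only member still above 1000 FPKM at 48 h. The second in abundance, also on chromosome 4, had 4386, 1345 and 361 FPKM and fell by 1.70 and 1.90 log2 units. These 2 genes thus lost similar proportions in each interval.

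The third in abundance, on chromosome 1, stayed high until 36 h and then dropped out of the abundant genes. It had 3109, 1547 and 79.4 FPKM, so that its change of -1.01 in the first interval was followed by one of -4.27. The fourth, on chromosome 2, had 1182, 456 and 87.6 FPKM, with changes of -1.37 and -2.37. None of these 4 fell 4-fold before 36 h, which the choice of genes itself ensures at this level.

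Both intervals last 12 h, so their falls can be set side by side. The median change of the 125 genes was -1.39 log2 units from 24 to 36 h and -1.52 from 36 to 48 h, against -0.21 and 0.03 over all genes. Of all 5040 genes, 19.3% were at least 2-fold lower in the first interval and 13.0% in the second. The interquartile range of the changes was -1.70 to -1.20 in the first interval and -2.07 to -1.22 in the second, and the largest falls among the 122 members never listed at 0 were 3.87 and 4.28 log2 units in size. The first fall was the larger in 57 genes and the second in 68. In a median member 49.2% of the whole fall on the log2 scale lay in the first interval. With median-of-ratios scaling the first fall was the larger in 33 genes, and with a pseudocount of 10 it was the larger in 81, so the data do not fix which interval held the larger fall for the group.

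**Figure D3:**
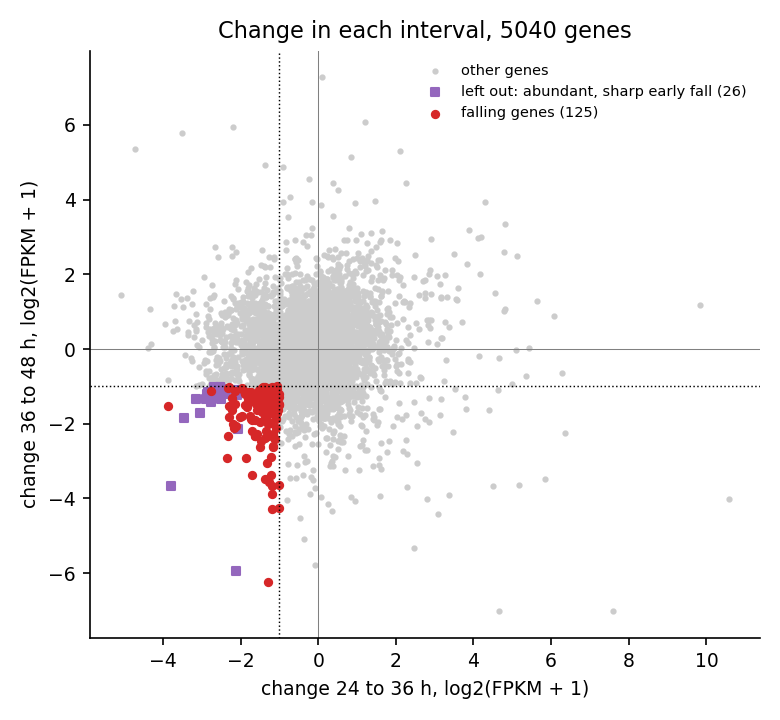
Change from 24 to 36 h (horizontal) against change from 36 to 48 h (vertical) in log2(FPKM + 1), for the 125 genes (red), the 26 abundant genes left out (purple squares) and all other genes (grey). Dotted lines mark the limit of -1. The red points gather near the corner of both limits and extend further down than to the left.

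At least 4-fold lower were 16 of the 125 genes from 24 to 36 h and 34 from 36 to 48 h. Over all genes 5.18% were at least 4-fold lower in the first interval and 2.96% in the second. The omission of abundant genes with a sharp early fall lowered the first of these counts, and with the 26 genes kept 42 were at least 4-fold lower in the first interval and 37 in the second. The order of the 2 counts thus depends on that omission. The remaining 80 members fell less than 4-fold in each interval. At least 8-fold lower were 1 gene in the first interval and 11 in the second, against 0.813% and 1.09% of all genes. With the 26 genes kept these counts were 5 and 13, and 2 of the 11 late falls are to a listed 0. As every member met the 2-fold limit in each interval, these contrasts with all genes follow in part from that rule. In the first interval 973 genes of the table met the 2-fold limit, of which 261 reached 4-fold and 41 reached 8-fold. In the second interval these numbers were 654, 149 and 55. By share, fewer members than such genes reached 4-fold in the first interval, where the omission lowered the count, and somewhat more in the second.

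A late collapse marked 21 genes, whose second fall exceeded the first by at least 1 log2 unit. Their median levels were 179, 55.6 and 6.51 FPKM, with median changes of -1.20 and -3.04. PAS_chr4_0953, on chromosome 4 by its tag, was one of them, at 548, 239.6 and 11.4 FPKM. Its level in the last library was 21.0-fold below that of 36 h, and its whole change of -5.47 on the log2(FPKM + 1) scale was the largest among members never listed at 0. As a plain ratio of FPKM it fell 48.0-fold over the whole course, less than the 63.2-fold of a chromosome 2 gene that ended at 1.09 FPKM.

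The other late falls of 8-fold or more covered a wide span of abundance. A chromosome 3 gene, the fifth in abundance within the group, had 967, 479 and 37.4 FPKM, and the ninth, also on that chromosome, had 779, 336 and 31.5 FPKM. Both still lay well above the median gene at 36 h. A chromosome 2 gene with 119, 51.8 and 2.58 FPKM was 20.04-fold below its 36 h level at the end. A second one had 111, 42.5 and 2.88 FPKM. The next had 92.7, 38.0 and 2.33 FPKM. The lowest of the chromosome 2 genes in this set had 68.6, 20.5 and 1.09 FPKM. A further chromosome 3 gene had 95.5, 38.0 and 3.75 FPKM. These 5 less abundant genes all ended at or below 3.75 FPKM, near the bottom of the library.

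In another 5 genes the first fall exceeded the second by at least 1 log2 unit. The choice of genes removed many of this kind: with the 26 abundant genes kept, 26 genes were weighted to the first interval in this way and 22 to the second. The 5 genes are therefore no measure of how common the pattern was. Their median levels were 288, 54.5 and 24.6 FPKM. The steepest, on chromosome 3, had 240.2, 15.4 and 4.75 FPKM, changes of -3.87 and -1.52. It was the only member at least 8-fold lower in the first interval. A chromosome 1 gene with 379, 54.5 and 24.6 FPKM changed by -2.77 and -1.12.

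The remaining 99 genes had falls within 1 log2 unit of each other, and in 41 of them the 2 falls differed by less than 0.25. Their median levels were 90.9, 34.5 and 10.5 FPKM, with median changes of -1.43 and -1.41. At least 4-fold lower in both intervals were 5 of the 125 genes, where 0.159% of all genes met that limit and 0.0992% met it once abundant genes with a sharp early fall were left out. Any such gene also meets the 2-fold rule, so these 5 members make up all of the 0.0992%. The most abundant of the 5, on chromosome 1, had 714, 156 and 37.8 FPKM. A chromosome 2 gene had 434, 95.9 and 21.6 FPKM, and a chromosome 4 gene had 329, 63.1 and 7.47 FPKM. The last 2 had 84.4, 16.03 and 2.41 FPKM on chromosome 1 and 37.5, 7.87 and 1.11 FPKM on chromosome 2. Given this limit in both intervals, a whole fall of 16-fold or more follows by construction for all 5 on the log2(FPKM + 1) scale.

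**Figure D4:**
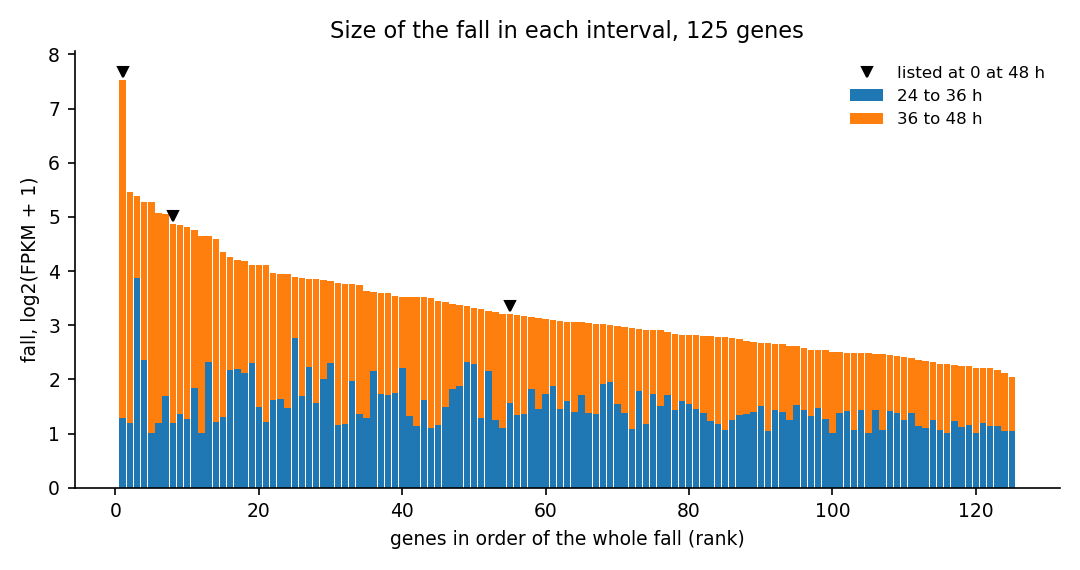
Fall of each of the 125 genes in log2(FPKM + 1), split into 24 to 36 h (blue) and 36 to 48 h (orange) and ordered by the whole fall, with triangles on the 3 genes listed at 0 at 48 h. Among the largest whole falls the orange part is mostly the longer, with the steepest early fall, of 3.87 log2 units, standing out in blue. The 26 abundant genes left out for a sharp early fall, with median changes of -2.55 and -1.17, are not shown.

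Over the whole course, 48 h against 24 h, the median change was -3.07 log2 units, with a range from -5.47 to -2.05 among the 122 members never listed at 0. As each member fell at least 2-fold in each interval, by construction all 125 ended at least 4-fold lower, against 9.88% of all genes. At least 8-fold lower were 69 members, against 3.51% of all genes. At least 16-fold lower were 21, against 0.853%. At least 32-fold lower were 7, against 0.238%, which is 12 genes of the table. Without the 3 members listed at 0 these 3 counts were 66, 19 and 6. Since the rule already sets a 4-fold fall, the contrast with all genes follows in part from the choice of genes. Of the 498 genes of the table at least 4-fold lower, 177 were at least 8-fold lower, 43 at least 16-fold and 12 at least 32-fold.

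A value of 0 at 48 h was listed for 3 members. No member was listed at 0 earlier, which the rule itself ensures, since a value of 0 cannot fall further. A chromosome 1 gene had 184, 74.97 and 0 FPKM. A chromosome 4 gene had 28.3, 11.7 and 0 FPKM, and the third had 8.27, 2.11 and 0 FPKM. The last was the least abundant member at 24 h. Among all genes 11 were listed at 0 in at least 1 library. As an exact 0 can be a failed estimate, no fold is given for any of these 3 genes. They do enter the medians and the counts of falls, where the size of their second change is set by the pseudocount: for the chromosome 1 gene it was -6.25 with 1, -9.55 with 0.1 and -3.09 with 10.

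In the 2 classes of level that held most members the median falls were close. The 59 members from 10 to under 100 FPKM at 24 h had medians of 42.8, 15.4 and 4.20 FPKM and median changes of -1.38 and -1.47. The 61 members from 100 to under 1000 FPKM had medians of 233, 85.3 and 26.5 FPKM and median changes of -1.40 and -1.52. Members made up 1.74% of all genes in the lower of these 2 classes and 4.63% in the upper. In the class of at least 1000 FPKM they made up 2.90%, that is 4 of 138 genes, with median changes of -1.40 and -2.13, and the genes left out by their sharp early fall were another 26 of the 138. Under 10 FPKM at 24 h there was 1 member, 0.529% of its class, where the added 1 FPKM makes the limits harder to reach.

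The 26 genes left out were far more abundant and fell mostly early. Their median levels were 3058, 501 and 214 FPKM, with median changes of -2.55 and -1.17. They held 8.82% of total FPKM at 24 h, more than the 4.43% of the 125 genes, and 0.668% at 48 h. Their median percentile among all genes was 99.1 at 24 h and still 87.3 at 48 h. Most of the 26 therefore ended well inside the expressed part of the library, while most of the 125 ended near its bottom. Since a level limit separates the sets, this contrast follows in part from the choice of genes.

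Some genes lay close to the limits. Of the 125 members, 33 were within 0.1 log2 units of the limit of -1 in at least 1 interval. The closest inside had 397.6, 191 and 95.1 FPKM with a second change of -1.002, and the abundant chromosome 1 gene described above had a first change of -1.01. Just outside by the first interval was a gene with 362, 183 and 42.6 FPKM, whose first change was -0.98. Just outside by the second was a gene with 74.3, 22.7 and 11.1 FPKM, whose second change was -0.97. Within 0.1 log2 units outside the limit were 18 genes that failed in the first interval alone and 17 in the second alone, not counting abundant genes that the sharp early fall would have left out. In the plot of both changes no gap separates the members from the genes around them.

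Membership depended on how the libraries were scaled. Total FPKM and the median gene were both lower at 36 h than at 24 h, and scalings that remove this raise the later values. Scaling by the median of ratios left 96 genes under the rule, 1.90% of all genes, of which 91 were among the 125. Trimmed-mean scaling left 95 genes, 1.88%, with 90 of them shared. Scaling to equal total FPKM left 104, 2.06%, with 99 of them shared. Under all 3 scalings 87 of the 125 genes kept both falls of 2-fold. A pseudocount of 10 left 58 genes, 1.15%, all among the 125, and one of 0.1 gave 143 genes, 2.84%, namely all 125 and 18 others. A 1.5-fold rule in each interval took in 404 genes, 8.02%. The 47 members that met the rule under both pseudocounts and all 3 scalings had medians of 203, 74.97 and 18.3 FPKM, and the other 78 had medians of 60.0, 20.2 and 6.89 FPKM. The pseudocount of 10 alone dropped 67 of the 125 genes, and low genes cannot meet the limits with it. The higher levels of the 47 therefore follow in part from that setting.

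**Figure D5:**
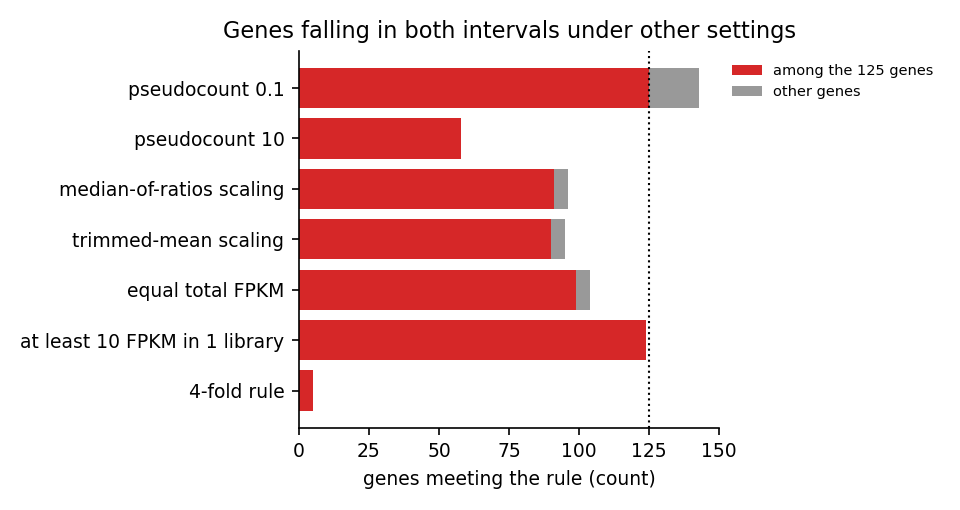
Number of genes that met the rule under other pseudocounts, scalings, a level filter and a 4-fold rule, split into genes among the 125 (red) and other genes (grey). The dotted line marks 125, and the 3 scalings give between 95 and 104 genes.

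By the prefix of their tags the 125 genes were spread over all 4 chromosomes. Chromosome 2 held 42 members, 3.15% of its 1333 genes. Chromosome 1 held 35, 2.41% of 1451 genes. Chromosome 4 held 22, 2.33% of 946 genes, and chromosome 3 held 23, 1.95% of 1178 genes. The other 3 members carried tags without a chromosome number. Over the whole table the share was 2.48%. The median whole change ranged from -3.30 on chromosome 4 to -2.90 on chromosome 2 among the 4 chromosomes.

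Some members sat side by side in the numbering of tags. Of the 125 genes, 13 formed 7 pairs with consecutive numbers, 1 gene being in 2 pairs. The number of such pairs among 125 genes taken at random was not computed. Whether 7 pairs exceed what random placement would give was therefore not tested. In the most abundant pair, on chromosome 1, one gene had 714, 156 and 37.8 FPKM and the other 934, 198 and 63.6 FPKM. Their changes were -2.19 and -2.02 in the first gene and -2.23 and -1.62 in its neighbour, so both lost about as much before 36 h. In a pair on chromosome 4 one gene had 588, 198 and 39.8 FPKM and the other 329, 63.1 and 7.47 FPKM. A run of 3 genes on chromosome 1 stayed low throughout, at 32.6, 21.9 and 33.1 FPKM at 24 h and 5.05, 3.96 and 5.37 FPKM at 48 h. Whether counting used the strand is not given in the sources used here. Therefore reads of overlapping neighbours could be shared between such genes.

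Next to the members stood 223 genes that were not members and whose tag number was 1 above or below. From 24 to 48 h their median change was -0.56, against -0.21 over all 4915 non-members. At least 2-fold lower were 88 of the 223, 39.5%, against 26.1% of all non-members and 28.0% of all genes. The median change of the neighbours was -0.27 in the first interval and -0.11 in the second, against -0.18 and 0.05 over all non-members. These are descriptions of the libraries, and the part of shared reads or of position in them was not tested.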

How the data were processed

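RNA was sequenced from cultures collected at 24, 36 and 48 h, with 1 library each. CASAVA and HISAT2 2.1.0 were used per the submitters' processing notes. For the gene counter, genome build, annotation and filters, details were not given in the sources used here. Deposited values are FPKM, per the file headers, and columns were matched to samples by the codes in the sample titles. Depth is unknown and whole reads were not recovered.

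Changes are differences of log2(FPKM + 1), a scale on which falls of low genes look smaller than they are. Genes were chosen by the limit of -1 in each interval, without a filter on low values. The members and lists were chosen with earlier results of these data known. The 14 gene lists had no members, since 0 tags matched a name. The rule for named genes gives 2 tags, the member highest at 24 h and the member with the largest fall and no value listed at 0. With 1 library per time point no test across samples was possible, and no p-value is given. The alternatives were pseudocounts of 0.1 and 10, scaling by the median of ratios, by a trimmed mean of unweighted log ratios to the 24 h library (30% of ratios and 5% of levels trimmed on each side) or to equal total FPKM, a filter at 10 FPKM, and 1.5-fold and 4-fold rules. Scaling to equal total FPKM was added after the data were examined. Neighbours are genes with consecutive tag numbers and the same prefix. Python 3.11.15, numpy 2.4.6, pandas 2.3.3 and matplotlib 3.10.9 were used.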

Additional observations from a re-analysis of the deposited data

How the results depend on the processing

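With no replicates and unknown depth, no value has an error, and genes with few FPKM are the least certain. Leaving out a replicate was not possible with 1 library per time point. No paired analysis was possible because there is a single library at each time. Against 125 genes, the stricter 4-fold rule gave 5, the looser 1.5-fold rule 404, and a pseudocount of 10, which shrinks changes of low genes, 58. The median changes of -1.39 and -1.52 became -1.43 and -1.66 with a pseudocount of 0.1, and -1.18 and -1.02 with one of 10. They became -1.16 and -1.52 with median-of-ratios scaling, -1.19 and -1.47 with trimmed-mean scaling and -1.25 and -1.47 with equal total FPKM. That last scaling was chosen after seeing the data. With the 26 abundant genes kept they were -1.47 and -1.43, and the shares of total FPKM rose to 13.2% at 24 h and 1.18% at 48 h. Leaving out members under 10 FPKM at 24 h gave a second change of -1.51. Leaving out values listed at 0 gave -1.40 and -1.49. The number of members with the larger fall in the first interval was 57 as reported and 33 with median-of-ratios scaling, whose factors were 0.848 at 36 h and 0.850 at 48 h relative to 24 h. It was 39 with trimmed-mean scaling, 46 with equal totals, 51 with a pseudocount of 0.1 and 81 with one of 10. In the first interval, median-of-ratios scaling shifted the change of the median gene of the table from -0.21 to 0.02. PAS_chr4_0210 changed from 24 to 48 h by -2.58 to -2.32 and PAS_chr4_0953 by -5.57 to -4.70 over these pseudocounts and scalings.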

Other observations

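Similar shares of the members and of all genes lay at the ends of the tag numbering, which was not tested. Of the 122 members with a chromosome prefix, 6 lay among the 20 first or last tags of a prefix, 4.92%, against 5.70% of all 4908 such genes. Over the whole table the share of members was 2.48%. Among prefixes with a chromosome number, PAS_chr2-1 held the highest share, 29 members among 862 genes or 3.36%. PAS_chr1-3 held the lowest, 4 among 290 or 1.38%. The small prefixes without a chromosome number held 1 of 18 (PAS_c121), 1 of 25 (PAS_FragD), 1 of 69 (PAS_FragB) and 0 of 20 (PAS_c131). Shares from so few members are uncertain. Falls in both intervals were 1 of several courses of genes that fell. Of all 5040 genes, 690 fell at least 2-fold in the first interval and then stayed within 2-fold. Another 422 stayed within 2-fold and then fell. By at least 2-fold in each interval, 132 were lower at 36 h and then higher, and 81 were higher at 36 h and then lower. These are counts without a test.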
